A study of Solanum lycopersicum with 96 samples.

Results

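The first 5 Mb of tomato chromosomes 1, 3, 4, 5, 7, 8, 9, 10, 11 and 12 held 10566 of the 237372 regions in 8 deposited lists of methylation regions. A region was counted as a member when its midpoint lay below position 5000000 of one of these 10 chromosomes, in the coordinates of the lists, so members were chosen by position alone. Of 31130 regions, 1386 were members in Moneyberg BABA TW2. Members numbered 1395 of 31258 in Moneyberg Ina TW2, 1397 of 31115 in Moneyberg BABA TW3, 1327 of 30041 in Moneyberg MeJA TW3 and 1500 of 32856 in Moneyberg Control. In Bolstar they numbered 1035 of 24151 with BABA TW2, 1346 of 30071 with Ina TW2 and 1180 of 26750 in Control. Members made up 4.29% to 4.57% of a list. The lists carry no genes and no annotation of their genome build was used, so the gene content of these stretches was not checked.

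The series asked whether chemical elicitors given to tomato mother plants (Solanum lycopersicum) were followed by differences in the DNA methylation of their seed. Whole-genome bisulfite sequencing was run on seed DNA of the cultivars Moneyberg and Bolstar. Moneyberg mother plants received BABA (beta-aminobutyric acid) in time window 2 or 3, Ina in time window 2, or MeJA (methyl jasmonate) in time window 3, beside a control group. Bolstar mother plants received BABA or Ina in time window 2, again beside a control group. TW stands for time window. Neither the days or growth stages of the windows nor the doses are known from the labels or the series text. All groups share the tissue, whole seed, with 10 seeds pooled for an extraction and seed from 6 mother plants for a treatment. The labels give 12 libraries for each group, 2 for each of 6 replicates, or 96 in all, where the series text counts 90 and does not name BABA in time window 3. Each group is represented by 1 list made from all its libraries, so no value below has a replicate error and no test between groups was possible. Read depth behind the regions is unknown.

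Tomato chromosomes have gene-rich euchromatin towards their ends and large gene-poor interiors of heterochromatin, packed with transposable elements. Plants methylate cytosines in the CG, CHG and CHH contexts, and transposable elements in heterochromatin are usually methylated in all of them, whereas many active genes carry methylation only in the CG context or none. Bisulfite converts unmethylated cytosine and leaves methylated cytosine, which is how sequencing reads tell them apart. BABA is known to induce disease resistance in plants, and jasmonate is a hormone of wound and defence responses. The labels do not spell out Ina. The names of the listed regions begin with HYPO, which would stand for low methylation. Direction, cytosine context and threshold are all unstated in the labels and in the lists. A listed region is therefore only called listed, and gained or lost refers to presence in a list and not to a direction of methylation.

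Each list has a lower limit of the score that the authors deposited with every region, and the number of members moved with it. The lowest score in a list was 69 in Moneyberg BABA TW2, 68 in Ina TW2, 69 in BABA TW3, 71 in MeJA TW3 and 65 in Moneyberg Control. It was 85 in Bolstar BABA TW2, 71 in Bolstar Ina TW2 and 78 in Bolstar Control. Bolstar BABA TW2, with the highest limit, had the fewest members, and Moneyberg Control, with the lowest limit, the most. Cut at 85 in every list, members numbered 997, 991, 986 and 1003 in the Moneyberg treatments in the order above and 976 in Moneyberg Control. Cut likewise, they numbered 1035 and 1037 in Bolstar BABA TW2 and Ina TW2 and 1070 in Bolstar Control. The list with the most members thus had the fewest after the cut, so values at the minimum of 85 are given beside the main results below.

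**Figure D1:**
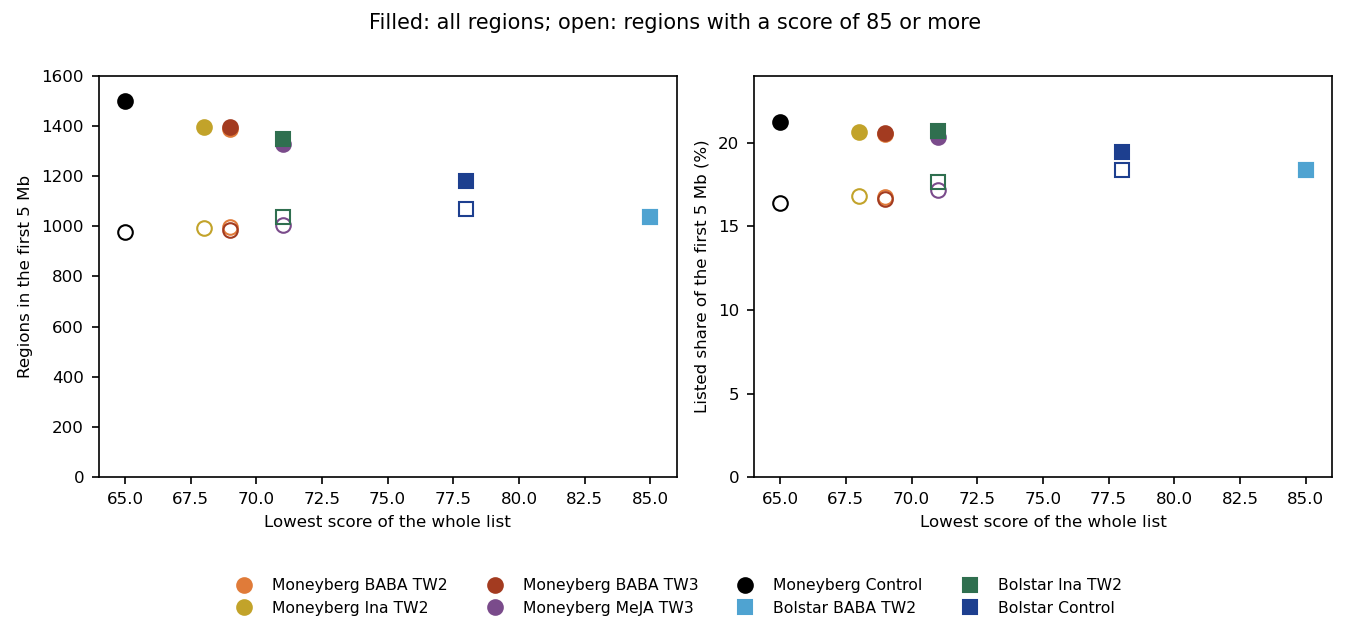
Number of member regions (left) and listed share of the first 5 Mb in percent (right) against the lowest score of the whole list, with circles for the 5 Moneyberg lists and squares for the 3 Bolstar lists. Filled symbols (all regions) descend to the right, from 1500 regions in Moneyberg Control to 1035 in Bolstar BABA TW2, while open symbols (regions scoring 85 or more) stay between 976 and 1070 regions.

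The starts of these chromosomes were sparsely listed. Pooled over the 10 chromosomes, 20.5% of the first 5 Mb was listed in Moneyberg BABA TW2, 20.6% in Ina TW2, 20.6% in BABA TW3, 20.4% in MeJA TW3 and 21.3% in Moneyberg Control. In Bolstar the share was 18.4% with BABA TW2, 20.7% with Ina TW2 and 19.5% in Control. In the interior of the same chromosomes 63.8% to 64.7% was listed, and in the last 5 Mb 11% to 13.8%. Every list thus had a listed share at the starts far below that of the interior and above that of the far ends. By chromosome, the first 5 Mb exceeded the last 5 Mb on 7 to 9 of the 10 chromosomes, depending on the list. At the minimum of 85 the pooled share was 16.7%, 16.8%, 16.6% and 17.2% in the Moneyberg treatments in the same order and 16.4% in Moneyberg Control. It was 18.4% and 17.6% in Bolstar BABA TW2 and Ina TW2 and 18.3% in Bolstar Control, so the 3 Bolstar lists then stood above the 5 Moneyberg lists.

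Chromosomes differed more from each other than lists did. Over the first 5 Mb, the listed share was 26.6% to 29.2% on chromosome 1, 26.7% to 29.1% on chromosome 10 and 24.95% to 27.8% on chromosome 8. Chromosome 7 followed with 20.7% to 23.7%, chromosome 12 with 17.4% to 21.2% and chromosome 9 with 16.6% to 19.8%. Least was listed on chromosome 4 with 13.9% to 16.5%, chromosome 5 with 13.3% to 16.01%, chromosome 11 with 13.2% to 16.1% and chromosome 3 with 10.3% to 14.2%. Chromosome 11 was the only one of the 10 on which the first 5 Mb lay below the last 5 Mb in all 8 lists, with a listed share of 16.3% to 20.6% in the last 5 Mb. On chromosomes 3 and 5 the order of the ends differed between lists. On chromosome 9 the interior itself was thinly listed, at 23.4% to 27.3%, so its start differed from its interior less than on the other chromosomes. Chromosomes 2 and 6 are not among the 10, and their first 5 Mb had listed shares of 75.9% to 78.8% on chromosome 2 and 37.3% to 43.2% on chromosome 6.

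**Figure D2:**
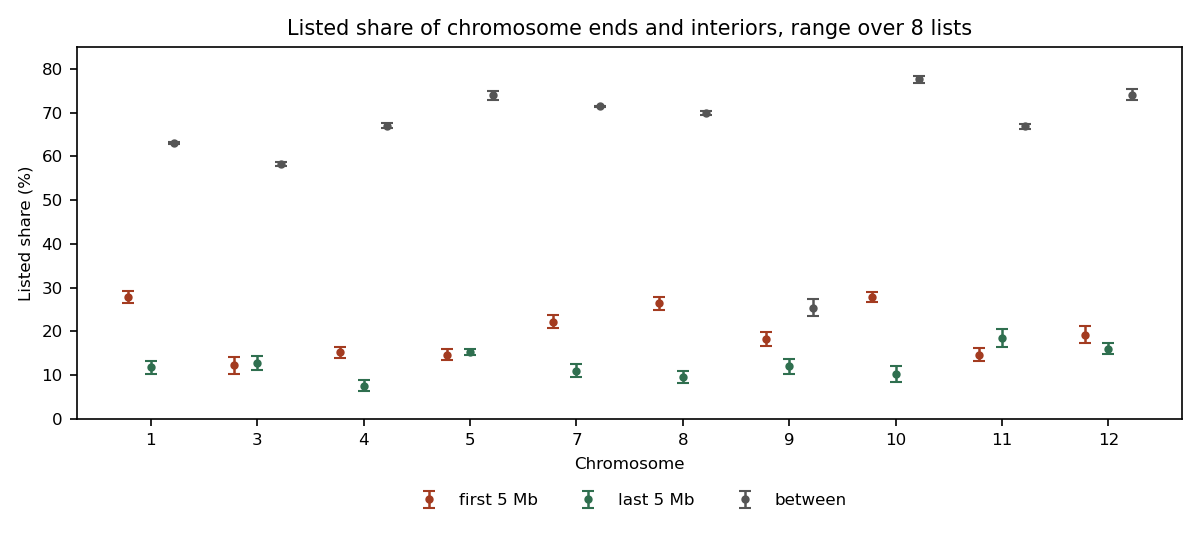
Percent of sequence listed at the start (first 5 Mb), at the far end (last 5 Mb) and in between on each of the 10 chromosomes. Bars span the lowest to the highest of the 8 lists and points mark the middle of that span. On every chromosome but 9 the interior stands above 57%, and both ends stand below 30%.

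Listing rose with distance from the chromosome start, but only from about 3 Mb inwards. Averaged over the 10 chromosomes, the listed share in Moneyberg Control was 18.6% of the first Mb, 16.6% of the second, 18.9% of the third, 22.2% of the fourth and 30.0% of the fifth. Bolstar Control had 16.7%, 15.4%, 17.4%, 20.2% and 27.5% in the same bins. In all 8 lists the bin from 1 to 2 Mb was the lowest, and the bin from 4 to 5 Mb exceeded the bin from 0 to 1 Mb by 10.6 to 11.6 percentage points. At the minimum of 85 this difference was 10.5 to 12.2 points. Just beyond the 5 Mb boundary the rise went on, with 39.8% to 44.6% listed from 5 to 6 Mb and 51.9% to 53.3% from 6 to 7 Mb. The boundary therefore lies on the slope and not at an edge of it.

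The average hides different courses. On chromosomes 1, 5, 7, 8, 10 and 12 the fifth Mb was listed more than the first in all 8 lists, on chromosomes 3, 9 and 11 it was listed less in all 8, and on chromosome 4 it was listed more in 2 of 8. Chromosomes 8 and 10 climbed most, with the fifth Mb above the first by 34.05 to 37.7 percentage points on chromosome 8 and 35.8 to 38.9 on chromosome 10. Chromosome 8 had 9.12% to 15.4% in the first Mb, 46.9% to 50.9% in the fifth and 83.0% to 84.1% just beyond the boundary. Chromosome 10 was at its lowest from 2 to 3 Mb, at 11% to 12.5%, and stood at 58.0% to 59.6% from 4 to 5 Mb, already at the level of its next Mb (56.1% to 57.8%). Chromosome 1 climbed at every step in 6 of 8 lists and chromosome 8 in 4 of 8. Within its first 5 Mb, chromosome 3 had its highest share in the first Mb, at 15.6% to 20.3%, against 5.09% to 9.89% in the second. Chromosome 11 had 18.7% to 20.8% in the first Mb and 11.6% to 12.99% in the fifth. Chromosome 9 was at its lowest from 4 to 5 Mb, with 7.01% to 15.5%, and the 8 lists then spread from 15.5% to 41.0% in the next Mb. That spread parted the cultivars, with 15.5% to 21.0% in the Bolstar lists and 39.4% to 41.0% in the Moneyberg lists.

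**Figure D3:**
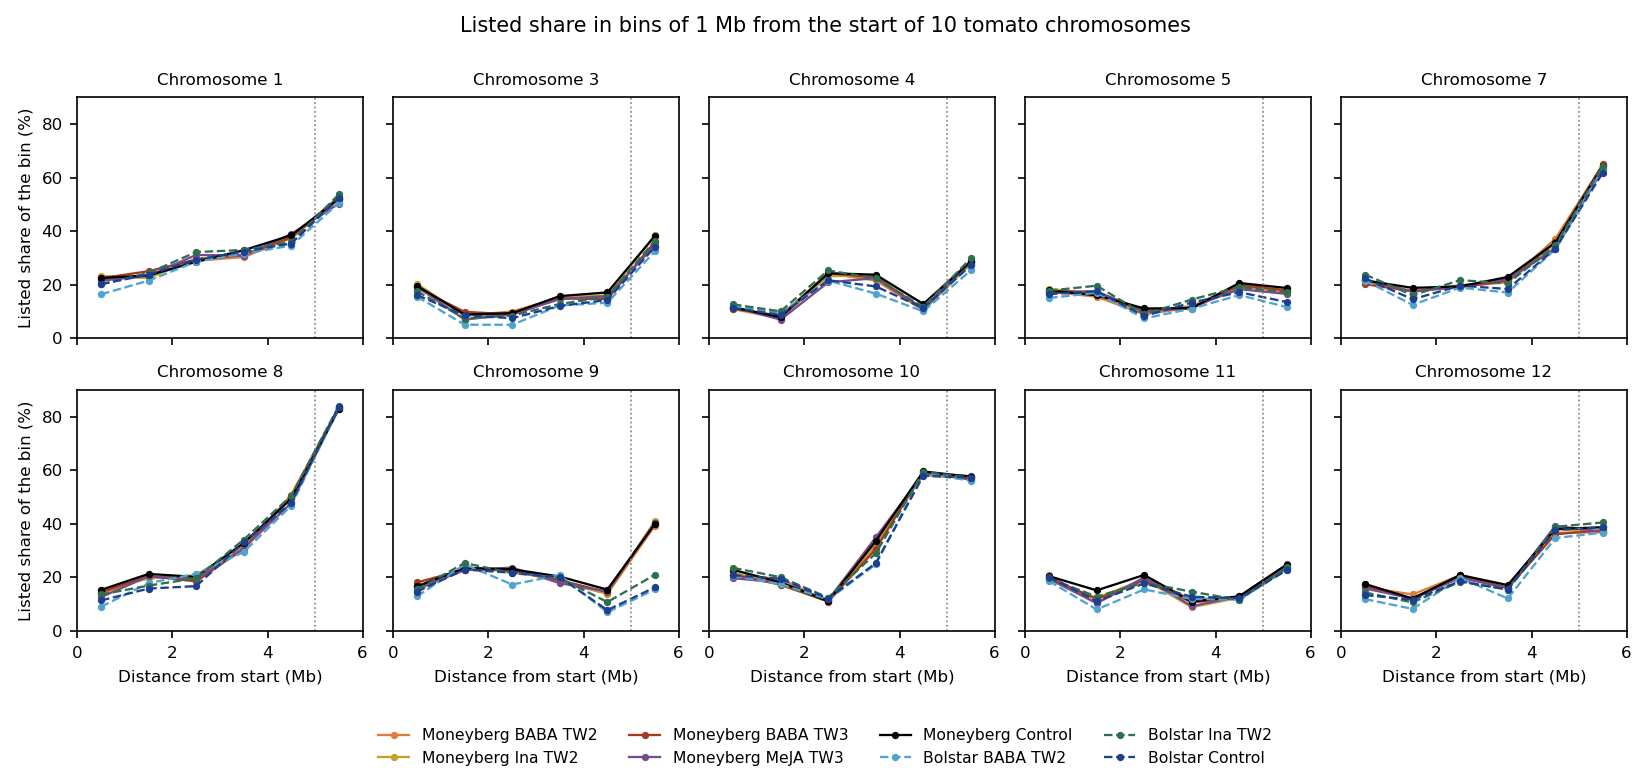
Listed share in percent of bins of 1 Mb (points at bin centres) against distance from the chromosome start in Mb, with 1 panel for each chromosome, solid lines for Moneyberg and dashed lines for Bolstar lists, and a dotted line at 5 Mb. The courses of the 8 lists run close together except on chromosome 9 from 5 to 6 Mb. There the Bolstar lists stand at 15.5% to 21.0% and the Moneyberg lists at 39.4% to 41.0%. The courses of the chromosomes differ: chromosome 8 climbs to 83.0% to 84.1% from 5 to 6 Mb, and chromosome 5 stays below 21% up to 6 Mb.

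The outermost 100 kb showed no common pattern. Its listed share was 52.2% to 58.8% on chromosome 7 and 36.3% to 44.5% on chromosome 12, against 3.601% to 8.79% on chromosome 8 and 0% to 8.33% on chromosome 5. The first listed base stood within 0.389 kb of position 1 on chromosomes 3, 7, 9 and 11 in every list. On chromosome 5 it stood 36.6 kb to 112 kb from the start and on chromosome 10 60.1 kb to 61.7 kb.

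Most of the starts was listed nowhere. Of the 50 Mb, 36.03 Mb (72.1%) held no region in any list, against 29.3% of the interior and 81.4% of the last 5 Mb. The longest stretches without a region were 249.9 kb on chromosome 11 (3251624 to 3501501), 241.6 kb on chromosome 3 (2358114 to 2599684) and 200.2 kb on chromosome 4 (4058040 to 4258251). Next came 187 kb on chromosome 5 (1722205 to 1909204), 175.2 kb on chromosome 8 (2961781 to 3136933) and 142.3 kb on chromosome 12 (3438371 to 3580669). On the other chromosomes the longest was 139.9 kb on 7 (1955556 to 2095432), 130.5 kb on 10 (2562562 to 2693102), 123.2 kb on 1 (1752432 to 1875589) and 108.6 kb on 9 (2277899 to 2386486). Stretches of 100 kb or more numbered 10 on chromosome 5, 8 on chromosome 3 and 7 on chromosome 11, and summed to 1.25 Mb, 1.25 Mb and 1.12 Mb. Chromosomes 9 and 10 had 1 each.

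Members were short. Their median length was 6.26 kb in Moneyberg BABA TW2, 6.14 kb in Ina TW2, 6.15 kb in BABA TW3, 6.52 kb in MeJA TW3 and 5.93 kb in Moneyberg Control. It was 7.33 kb in Bolstar BABA TW2, 6.45 kb in Bolstar Ina TW2 and 6.88 kb in Bolstar Control. Interior regions had medians of 10.3 kb to 13.6 kb, and regions of the last 5 Mb 5.99 kb to 7.80 kb. The order of the lists followed their lowest scores, and at the minimum of 85 the member medians lay between 7.11 kb and 7.40 kb. Only 29 to 37 members in a list reached 20 kb (1.93% to 3.58%), and they held 8.24% to 12.9% of the listed length. In the interior 21.1% to 32.8% of regions reached 20 kb and held 49.1% to 64.7% of the length. Density was also lower at the starts, with 20.7 to 30.0 regions per Mb against 32.4 to 44.1 in the interior.

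The longest members all lay close to the inner boundary. In 5 lists it was a block on chromosome 5, at 4531943 to 4603047 in Moneyberg BABA TW2 (71.1 kb, score 1127). This block began at 4531343 in Moneyberg Control (71.7 kb) and at 4525845 in MeJA TW3 (77.2 kb), and it reached 4616190 in Moneyberg BABA TW3 and Bolstar Ina TW2 (84.2 kb, score 1268 in both). In the other 3 lists it was a block on chromosome 10, at 4860985 to 4957063 in Moneyberg Ina TW2 (96.1 kb, score 1543). It ran from 4863717 to 4976077 in Bolstar BABA TW2 (112 kb, score 1803) and from 4864879 to 4983069 in Bolstar Control (118 kb, score 1865). Each of these intervals was covered over at least 92.1% of its bases by every other list, so lists differed in where they split a block and hardly in the sequence listed.

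Score per kb was higher at the starts than elsewhere. Summed score over summed length of the members was 18.9 per kb in Moneyberg BABA TW2, Ina TW2 and MeJA TW3, 18.8 in BABA TW3 and 18.8 in Moneyberg Control. It was 19.2 in Bolstar BABA TW2, 18.8 in Bolstar Ina TW2 and 19.0 in Bolstar Control. The interior gave 17.1 to 17.2 and the last 5 Mb 17.2 to 17.6. What the score counts is not stated. It grew with length (Pearson r 0.701 to 0.732 over the members of a list, 0.932 to 0.947 over interior regions; a description over regions of 1 list), and it was the same in all 8 lists for 98 of the 119 member intervals with identical boundaries in every list. By chromosome, the ratio was highest on chromosomes 1, 3 and 4, reaching 20.4, 21.6 and 20.5 per kb. It was lowest on chromosome 8 (17.5 to 17.7) and chromosome 11 (17.3 to 18.5).

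The higher ratio went with a small class of short regions of high score per kb. They were chosen by that ratio, so the ratio must fall without them. A short region is listed only if it reaches the lowest score of its list, so shortness and a high ratio are partly tied. Members with 40 or more per kb, a limit chosen after the values were seen, numbered 78 to 106 in a list. They made up 6.74% to 7.54% of members, against 1.63% to 1.97% of interior regions and 4.49% to 5.41% of regions in the last 5 Mb. They stood at 1.56 to 2.12 per Mb, against 0.526 to 0.870 per Mb in the interior and 0.68 to 1 per Mb in the last 5 Mb. Their median length ran from 2.42 kb in Moneyberg Control (106 of them, lowest score 65) to 4.21 kb in Bolstar BABA TW2 (78, lowest score 85). They took 4.35% to 5.07% of the members' length and 12.4% to 14.0% of the members' score, against 0.479% to 0.552% of length and 1.48% to 1.68% of score in the interior. In the last 5 Mb, dense regions took 3.13% to 3.75% of length and 8.54% to 9.97% of score. Without them the ratio was 17.1 to 17.4 per kb at the starts and 16.9 to 17.0 in the interior, and the correlation of length with score was 0.800 to 0.842 at the starts and 0.940 to 0.953 in the interior. Chromosome 4 held 17 to 23 of these dense members, chromosome 1 held 13 to 18 and chromosome 5 held 1 or 2.

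Dense members clustered in a few places, and several of these recurred from list to list. A run was counted from 4 dense members, each within 10 kb of the next. A list that joins the same sequence into fewer regions therefore shows no run there. On chromosome 4, from 3703316 to 3750825, 8 to 10 dense members lay within 10 kb of the next in the 5 Moneyberg lists, with 56.4 to 60.3 per kb of listed sequence. The 3 Bolstar lists had runs of 6 to 10 dense members in that stretch. On chromosome 1, a run between 3318493 and 3373504 held 5 to 8 dense members in all 8 lists, with 52.3 to 55.1 per kb. A run of 4 or 5 between 931241 and 944080 on chromosome 8 stood in 7 lists, with 64.4 to 79.3 per kb, and one between 4474374 and 4506634 on chromosome 4 in 7 lists, with 56.2 to 62.2 per kb. A run on chromosome 10 between 355227 and 378663 appeared in 4 lists, with 65.9 to 68.4 per kb. Other runs recurred little or not at all. Only Bolstar Control had a run on chromosome 3 (1267424 to 1276816), and only Moneyberg Control had one on chromosome 7 (209 to 15775). On chromosome 9, only Moneyberg Ina TW2 had a run from 108057 to 123831. Only MeJA TW3 and Control of Moneyberg had one from 1554641 to 1565189. The densest member of at least 1 kb lay at the chromosome 8 run in 7 lists, with 79.3 to 83.1 per kb. In Moneyberg Ina TW2 it was on chromosome 3 at 1267424 to 1268650 (77.4 per kb), an interval covered whole by all 8 lists. The member with the highest score was the same block in every list, on chromosome 3 from 235437 (235391 in Bolstar BABA TW2) to 271712 or 271782. It scored 1952 in Bolstar BABA TW2, 1960 in Bolstar Ina TW2 and 1957 in Bolstar Control, and 1947 to 1954 in the 5 Moneyberg lists, or 53.6 to 54.0 per kb over 36.3 kb to 36.4 kb. No gene or repeat can be named for these places, since no annotation of the lists' build was used.

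The lists shared less of their sequence at the starts than in the interior. Of 14.0 Mb listed in at least 1 list, 6.76 Mb (48.4%) stood in all 8 and 11.1% in only 1. In the interior 78.7% stood in all 8 and 2.496% in only 1 (83.4% and 1.47% without chromosome 9), and in the last 5 Mb 40.7% and 12.8%. The zones also differed in listing, with 18.4% to 21.3% of the starts listed against 63.8% to 64.7% of the interior. Median region lengths were 5.93 kb to 7.33 kb against 10.3 kb to 13.6 kb. Whether the sharing follows from these differences was not tested. By chromosome, the share in all 8 was highest on chromosome 10 (62.0%) and chromosome 8 (58.8%), both with a steep inner rise. It was lowest on chromosome 4 (36.3%), chromosome 11 (38.1%) and chromosome 9 (40.4%). Of the members, 119 had identical boundaries in all 8 lists, with a median length of 5.75 kb and 0.841 Mb in all, or 11.5% of the members of Bolstar BABA TW2 and 7.93% of those of Moneyberg Control.

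Each treatment list was then compared with the control list of its cultivar. Gained members are those of the treatment list without any base in the control list, and lost members are those of the control list without any base in the treatment list. The 95% Wilson intervals beside the shares express counting error alone and say nothing of the spread between plants. The 4 Moneyberg comparisons share 1 control list and the 2 Bolstar comparisons another, so their values stand side by side and do not support each other.

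Among all regions, more members were lost than gained in 5 of the 6 comparisons, and Bolstar Ina TW2 went the other way. For Moneyberg BABA TW2, 75 of 1386 members were gained (5.41%, interval 4.34% to 6.73%), where 2.91% of the whole list was. Of the 1500 control members 180 were lost (12%, 10.5% to 13.7%), where 4.61% of the whole control list was. For Moneyberg Ina TW2, 61 were gained (4.37%, 3.42% to 5.58%; 2.67% of the whole list) and 153 lost (10.2%, 8.77% to 11.8%; 4.39%). For Moneyberg BABA TW3, 62 were gained (4.44%, 3.48% to 5.65%; 2.69%) and 158 lost (10.5%, 9.08% to 12.2%; 4.49%). Ina TW2 and BABA TW3 thus gave nearly the same counts. For MeJA TW3, 65 were gained (4.90%, 3.86% to 6.20%; 2.88%) and 209 lost (13.9%, 12.3% to 15.8%; 5.81%), the most lost members of the Moneyberg comparisons. For Bolstar BABA TW2, 72 of 1035 were gained (6.96%, 5.56% to 8.67%; 2.67%) and 208 of 1180 lost (17.6%, 15.6% to 19.9%; 7.07%). For Bolstar Ina TW2, 210 of 1346 were gained (15.6%, 13.8% to 17.6%; 7.07%) and 60 of 1180 lost (5.09%, 3.97% to 6.49%; 2.86%). In every comparison and direction the member share stood above the share over the whole list. The far ends of the same chromosomes did so too. In the last 5 Mb, regions gained made up 5.50%, 5.02%, 4.83% and 5.41% in Moneyberg BABA TW2, Ina TW2, BABA TW3 and MeJA TW3, and 6.98% and 20.02% in Bolstar BABA TW2 and Ina TW2. Regions lost there made up 11.2%, 9.85%, 9.75%, 16.2%, 18.1% and 5.94% in the same order, so the raised shares belong to both chromosome ends. Regions at both ends also scored lower, so these shares compare regions of unlike score. Median scores in a list were 97 to 125 at the starts, 93 to 119 in the last 5 Mb and 164 to 220 in the interior. Shares within classes of score are given below.

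The lowest scores of the lists moved with these directions. Lost regions were small, with median scores of 69 to 70 in Moneyberg, 85 for Bolstar BABA TW2 and 92.5 for Bolstar Ina TW2. Lost members that scored below the lowest score of the treatment list came to 67 in the comparison of Moneyberg BABA TW2, to 33 with Ina TW2, to 62 with BABA TW3, to 131 with MeJA TW3 and to 101 in that of Bolstar BABA TW2. Of the 210 members gained in Bolstar Ina TW2, 112 scored below the lowest score of Bolstar Control. In each comparison the list with the lower limit was the one with more members absent from the other. With both lists cut at the higher lowest score of the pair, gained minus lost was -34 in Moneyberg BABA TW2, -55 in Ina TW2, -25 in BABA TW3, -1 in MeJA TW3, -27 in Bolstar BABA TW2 and 22 in Bolstar Ina TW2. The sign was thus kept in each comparison at the limit of its own pair, with smaller differences. In MeJA TW3 it rested on 77 gained against 78 lost. The sign was also kept with each list cut at its own median score, but that cut leaves the limits of a pair unequal. Interior regions had a median score of 164 in Moneyberg Control and 171 to 178 in its treatments. In Bolstar it was 181 with Ina TW2, 201 in Control and 220 with BABA TW2. With both lists cut at 85, also a shared limit, the sign turned in 5 of the 6.

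Counting only members of score 85 or more, still against the whole other list, removed most of the differences in Moneyberg. Gained and lost were 26 of 997 (2.61%; 1.86% of the whole list cut likewise) and 18 of 976 (1.84%; 1.1%) for BABA TW2. For Ina TW2 they were 17 of 991 (1.72%; 1.65%) and 18 of 976 (1.4% of the whole control list). For BABA TW3 they were 18 of 986 (1.83%; 1.6%) and 18 (1.33%), and for MeJA TW3 23 of 1003 (2.29%; 2%) and 18 (1.26%). The Wilson intervals of these Moneyberg shares held the share of the whole list, except for the losses of BABA TW2 (1.17% to 2.90%). That is a description and no test, since regions of 1 list are not replicates. The whole list also includes the members, and all losses count the same 976 control members. In Bolstar more remained, but the other list reached less far below 85 in 3 of its 4 counts. It began at 85 for the losses of BABA TW2 and at 78 for the gains of both treatments. For the losses of Ina TW2 it began at 71, and in Moneyberg at 65 to 71. BABA TW2 kept 72 of 1035 gained (2.67% of the whole list) and had 107 of 1070 lost (10.0%; 4.31%). Ina TW2 had 34 of 1037 gained (3.28%; 2.07%) and 50 of 1070 lost (4.67%; 2.64%), so its direction turned.

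**Figure D4:**
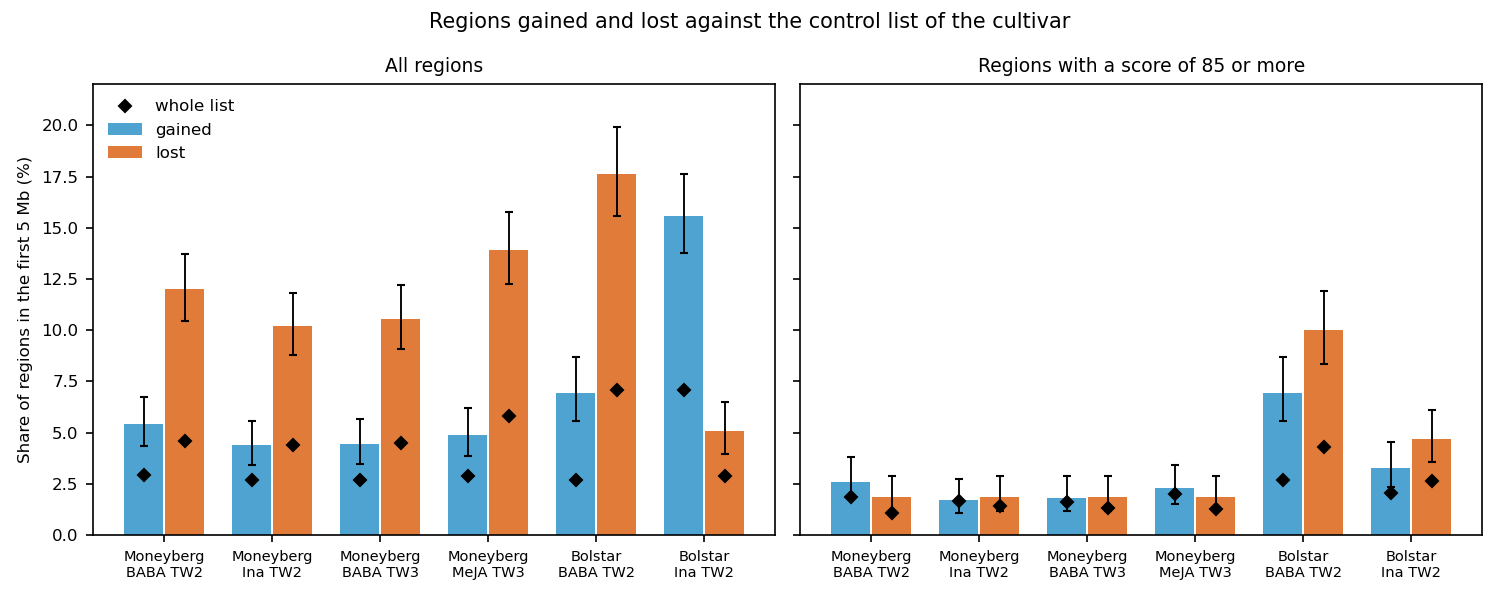
Share in percent of member regions gained (blue) and lost (orange) against the control list of the cultivar, for all regions (left) and for members scoring 85 or more (right), with bars for the share, whiskers for its 95% Wilson interval and diamonds for the share over the whole list. With all regions, losses reach 17.6% in Bolstar BABA TW2 and gains 15.6% in Bolstar Ina TW2; at 85 or more, all Moneyberg shares lie below 2.7%.

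The direction was spread over the chromosomes. Among all regions, more members were lost than gained on 10 of 10 chromosomes for Moneyberg BABA TW2, Ina TW2 and MeJA TW3 and for Bolstar BABA TW2. For Moneyberg BABA TW3 it was 9 of 10, with 17 gained and 16 lost on chromosome 1. For Bolstar Ina TW2 more were gained on 10 of 10, with 10 on chromosome 3 and up to 28 on chromosome 8. The highest share lost in Moneyberg was on chromosome 4 under MeJA TW3 (27 of 135 members), and in Bolstar 25.3% on chromosome 3 under BABA TW2. Counted in bases, no chromosome had more sequence only in the treatment list than only in the control list in the 4 Moneyberg comparisons and in Bolstar BABA TW2, and all 10 had in Bolstar Ina TW2. With both lists cut at 85, chromosomes with more sequence only in the treatment list numbered 8, 8, 7 and 8 in Moneyberg BABA TW2, Ina TW2, BABA TW3 and MeJA TW3, 5 in Bolstar BABA TW2 and 0 in Bolstar Ina TW2.

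Members of high score were hardly ever gained or lost. Score grew with length and 1 shared base prevents a call, so the rule itself leaves less room for calls among such members. In classes of score set after the data were seen, those of 150 or more had no gain or loss in the 4 Moneyberg comparisons, where 317 control members of this class were at stake. In Bolstar, 3 of 363 were gained with BABA TW2 and 1 of 333 with Ina TW2, and 1 of the 345 control members was lost with each. In the interior without chromosome 9 the shares of this class were 0.0143% to 0.126% gained and 0% to 0.0531% lost. In the class from 85 to 99, 4.71% to 14.9% of members were gained, against 2.90% to 6.08% in the interior without chromosome 9, and 3.49% to 24.5% were lost, against 2.15% to 16.2%. The gap between starts and interior was wide in Bolstar BABA TW2, a list that itself begins at 85 (34 of 228 gained, 14.9%, against 6.08%; 73 of 298 lost, 24.5%, against 16.2%). It was narrow for gains in Moneyberg MeJA TW3 (12 of 255, 4.71%, against 4.46%), and comparisons with a shared control count the same control members again. In the class from 100 to under 150 the shares at the starts were 0.759% to 7.88% gained, against 1.45% to 2.56% in the interior, and 1.25% to 7.73% lost, against 0.761% to 2.30%. Losses there exceeded the interior in all 6 comparisons, but gains in only 3 of 6. Gains were lower at the starts in Moneyberg BABA TW2 (1.76% against 1.84%), Ina TW2 (0.973% against 1.55%) and BABA TW3 (0.759% against 1.47%). In MeJA TW3 only 5 of 401 were lost in that class (1.25% against 1.11%). The last 5 Mb resembled the starts, with 5.26% to 13.4% gained and 1.71% to 26.6% lost from 85 to 99. Chromosome 9 bears on the interior values: at 85 or more, 1.14% of interior regions were lost in Moneyberg BABA TW2 with it and 0.464% without it, against 1.84% of members. Dense members numbered 78 to 106 in a list, and 1 to 5 of them were gained and 1 to 7 lost in a comparison. In Moneyberg 6.60% of dense control members were lost in each comparison, against 10.5% to 14.5% of the others.

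**Figure D5:**
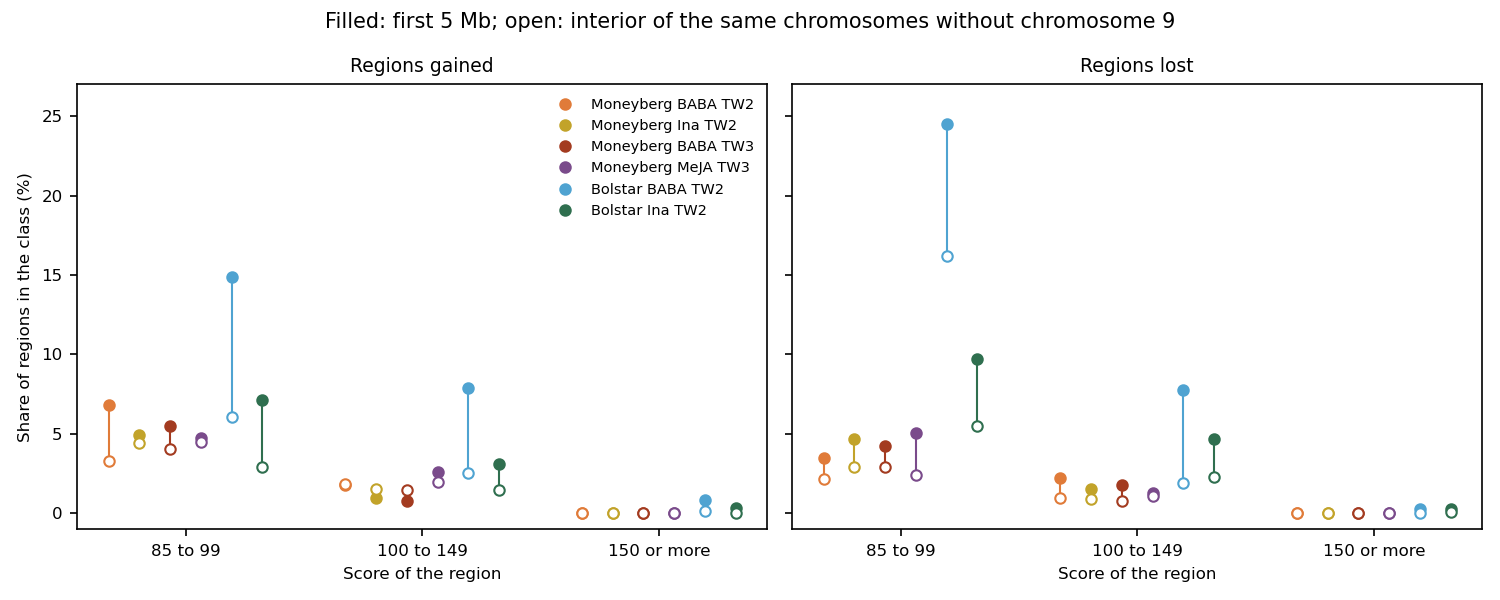
Share in percent of regions gained (left) and lost (right) in 3 classes of score, for the first 5 Mb (filled) and for the interior of the same chromosomes without chromosome 9 (open), with 1 colour for each treatment. Lines join both values of a treatment; the lines of Bolstar BABA TW2 from 85 to 99 are long in both panels (14.9% and 6.08% gained, 24.5% and 16.2% lost), and all points from 150 upwards lie at or below 0.826%.

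Counted in bases, the Jaccard index (bases in both lists over bases in either) at the starts was 0.861 in the comparison of Moneyberg BABA TW2, 0.878 with Ina TW2, 0.876 with BABA TW3 and 0.849 with MeJA TW3. It was 0.795 for Bolstar BABA TW2 and 0.829 for Bolstar Ina TW2. In the interior without chromosome 9 it was 0.9501 to 0.958 and in the last 5 Mb 0.781 to 0.869. At the minimum of 85 in both lists the values at the starts were 0.892, 0.890, 0.894 and 0.880 in Moneyberg in the same order, and 0.831 and 0.874 in Bolstar, still below the interior. The starts were also listed less than the interior and in shorter regions, and the part of this in the index was not tested. Sequence only in the treatment list amounted to 0.588 Mb for Moneyberg BABA TW2, against 0.968 Mb only in Moneyberg Control. It was 0.805 Mb against 1.36 Mb for Bolstar BABA TW2 and 1.24 Mb against 0.632 Mb for Bolstar Ina TW2. With both lists cut at 85 these balances turned, to 0.549 Mb against 0.396 Mb, 0.855 Mb against 0.841 Mb and 0.428 Mb against 0.783 Mb in the same order. Among all regions, whole lost regions made up 81.5% to 88.3% of the sequence only in the control list for the 5 comparisons with more lost than gained, and whole gained regions 86.0% of the sequence only in Bolstar Ina TW2. Many boundaries were the same: 62.6% to 63.9% of members in the Moneyberg treatments and 50.8% to 51.0% in the Bolstar treatments had an identical interval in their control list, against 53.0% to 53.6% and 43.8% to 47.3% of interior regions. Chromosome 11 had the lowest index for Moneyberg BABA TW2 (0.773), Ina TW2 (0.812) and BABA TW3 (0.825). The lowest was on chromosome 4 for MeJA TW3 (0.775), chromosome 3 for Bolstar BABA TW2 (0.722) and chromosome 9 for Bolstar Ina TW2 (0.773).

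The gained and lost members with the highest scores were checked in every list. On chromosome 9, 1822190 to 1828551 (6.36 kb, score 138) was gained in Moneyberg BABA TW2, and 1821763 to 1828551 (score 143) in MeJA TW3. Both Bolstar treatments held it whole and Bolstar Control held 49.0% of the BABA TW2 interval, whereas Moneyberg Ina TW2, BABA TW3 and Control held none. On chromosome 7, 2595528 to 2607350 (score 122) was gained in Moneyberg Ina TW2 and in no other Moneyberg list, and all 3 Bolstar lists held 86.5% of it. On chromosome 7, 4390470 to 4401133 (score 136) was gained in Moneyberg BABA TW3. Moneyberg BABA TW2 held 42.1% of it and Bolstar BABA TW2 63.2%, and the Ina and MeJA lists and both controls held none. This pattern of 3 BABA lists was noticed in 1 interval after its values were seen. On chromosome 10, 1170338 to 1176559 (6.22 kb, score 152) was gained in Bolstar BABA TW2 and touched by no other list. On chromosome 3, 272181 to 287344 (15.2 kb, score 203) was gained in Bolstar Ina TW2. It begins beside the block with the highest score and was the largest gain by score in the 6 comparisons, and 3 Moneyberg lists held 48.0% to 68.3% of it.

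Among losses, 1819714 to 1827051 on chromosome 7 (7.34 kb, score 118) was listed in Moneyberg Control and absent from all 4 Moneyberg treatment lists. Bolstar Ina TW2 held 70.4% of it, and Bolstar BABA TW2 and Bolstar Control held none. On chromosome 10, 4309943 to 4318285 (8.34 kb, score 131) was absent under BABA TW2, Ina TW2 and MeJA TW3 and whole under BABA TW3 in Moneyberg. Bolstar BABA TW2 and Ina TW2 held 88.0% of it and Bolstar Control none. On chromosome 11, 1947234 to 1962715 (15.5 kb, score 135) was absent under Moneyberg BABA TW2 and MeJA TW3 and 54.8% of it was held by Ina TW2 and BABA TW3. The dense member 3717832 to 3719350 on chromosome 4 (1.52 kb, score 111, 73.1 per kb), inside the run described above, was missing from Moneyberg BABA TW3 and whole in the other 7 lists. In Bolstar, 414931 to 426235 on chromosome 12 (11.3 kb, score 161) was lost under BABA TW2 and whole under Ina TW2. On chromosome 1, 3715437 to 3723643 (8.21 kb, score 160) was lost under Bolstar Ina TW2, and Bolstar BABA TW2 held 54.2% of it. On chromosome 3, 1064006 to 1070233 (6.23 kb, score 140) was absent from both Bolstar treatment lists and whole in Bolstar Control, and all 5 Moneyberg lists held 97.2% of it.

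The control lists of the cultivars differed more at the starts than any treatment did from its control. The Jaccard index of Bolstar Control with Moneyberg Control was 0.645, or 0.662 at the minimum of 85, against 0.903 in the interior without chromosome 9 and 0.563 in the last 5 Mb. It was lowest on chromosome 4 (0.519) and highest on chromosome 8 (0.760). Of 1180 Bolstar Control members, 158 shared no base with Moneyberg Control (13.4%, Wilson interval 11.6% to 15.5%; 4.3% of the whole list). Of 1500 Moneyberg Control members, 429 shared none with Bolstar Control (28.6%, 26.4% to 30.9%; 10.1%), and 264 of these scored below the lowest score of Bolstar Control. Members of score 85 or more were also counted against the whole other list, which began at 65 in Moneyberg Control and 78 in Bolstar Control. Those sharing no base numbered 124 of 1070 in Bolstar Control (11.6%, against 3.83% of the whole list cut likewise). In Moneyberg Control they numbered 113 of 976 (11.6%, against 3.22%). The excess on the Moneyberg side was thus absent in that count. Among all regions, 1.75 Mb of the starts stood only in Bolstar Control and 2.65 Mb only in Moneyberg Control. With both lists cut at 85, these were 2.25 Mb and 1.29 Mb. The share of the starts listed was lower in Bolstar Control than in Moneyberg Control on 10 of 10 chromosomes, and at the minimum of 85 only on chromosome 3. With 1 list for each cultivar's control, genotype and the making of the list cannot be told apart.

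In some places all 3 Bolstar lists stood apart from all 5 Moneyberg lists. Those with the largest differences are described here, without a test since they were chosen by them, beside the means at the minimum of 85. In bins of 100 kb, from 900001 to 1000000 on chromosome 1 the mean share was 46.7% in Bolstar and 68.2% in Moneyberg, and 45.6% and 67.7% at the minimum of 85. From 3700001 to 3800000 on chromosome 10 it was 45.6% in Bolstar and 66.1% in Moneyberg (44.1% and 66.1% at 85). From 4900001 to 5000000 on chromosome 9 it was 6.72% in Bolstar and 25.3% in Moneyberg (6.72% and 23.5% at 85), next to the Mb beyond the boundary where the lists spread most. From 2900001 to 3000000 on chromosome 4 it was 5.94% in Bolstar and 28.7% in Moneyberg (0% and 18.2% at 85). From 500001 to 600000 on chromosome 12 it was 2.95% in Bolstar and 25.8% in Moneyberg, but 1.62% and 8.41% at 85. In the other direction, from 3900001 to 4000000 on chromosome 11 the mean was 35.4% in Bolstar and 15.8% in Moneyberg (33.7% and 9.51% at 85). From 100001 to 200000 on chromosome 4 it was 39.7% in Bolstar and 25.1% in Moneyberg (38.8% and 17.9% at 85).

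Over all bins the balance turned with the minimum. In bins of 100 kb, Bolstar lay wholly below Moneyberg in 102 of 500 and wholly above in 66. At the minimum of 85 it lay below in 66 and above in 121. In bins of 1 Mb it lay below in 18 of 50 and above in 3, and at the minimum of 85 below in 3 and above in 21. The bins of 1 Mb with the largest differences were 3 to 4 Mb on chromosome 10, with 26.4% in Bolstar and 32.8% in Moneyberg (24.1% and 27.9% at 85), and 4 to 5 Mb on chromosome 9, with 8.55% in Bolstar and 14.6% in Moneyberg (7.23% and 10.9% at 85). From 3 to 4 Mb on chromosome 11 Bolstar was higher, with 13.2% against 10.4% in Moneyberg (11.6% against 8.15% at 85).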

How the data were processed

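Whole-genome bisulfite sequencing of seed DNA is represented by 8 region lists, 1 for each group, which the authors deposited without a header: chromosome, start, end, a name, a whole-number score and a strand. The score deposited by the authors has no stated definition. Trim Galore is named in the submitters' processing notes. Not given in the sources used here are the genome build, the aligner, how regions were called, the cytosine context and how libraries were combined. Lists were assigned to groups by the labels of their libraries, and all columns could be assigned.

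Regions, bins and overlaps were computed with Python 3.11.15, numpy 2.4.6 and pandas 2.3.3, Wilson intervals with scipy 1.17.1 and figures with matplotlib 3.10.9. The overlap counts were checked on simulated lists. Sharing 1 base counted as overlap, and the end of a chromosome was its last listed base. Coordinates are counted from 1. The named regions are the 3 gained and the 3 lost members of highest score in each comparison (the text gives examples), the longest and the densest member (at least 1 kb) of each list, the longest unlisted stretch of each chromosome, and the 5 bins in each direction that set the cultivars apart most. The members, lists and comparisons were chosen with earlier results of these data known. Alternatives were other windows, score minima, a reciprocal overlap of 50%, merging of regions within 1 kb and leaving out chromosomes. Counting members of score 85 or more against a whole list, the limit of 40 per kb and the score classes were added after the data were seen. Depth is unknown, so no interval covers it. The lists state no genome build, so no gene table was used and no gene or sequence is given.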

Additional observations from a re-analysis of the deposited data

Results flagged for a closer look

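The same elicitor in the same window went opposite ways in the cultivars. Gained minus lost members for Ina TW2 came to 150 in Bolstar (210 gained, 60 lost) and to -92 in Moneyberg (61 gained, 153 lost). With 1 list for each group the difference was not tested. It moved with the lowest scores of the lists: 71 in Bolstar Ina TW2 against 78 in Bolstar Control, and 68 in Moneyberg Ina TW2 against 65 in Moneyberg Control. For members of score 85 or more against the whole other list it came to -16 in Bolstar and -1 in Moneyberg. With both lists cut at 85 it came to -40 in Bolstar and 22 in Moneyberg. The opposite directions were kept with both lists cut at the higher lowest score of the pair, at 22 in Bolstar and -55 in Moneyberg. They were also kept at their own median score, at 40 in Bolstar and -15 in Moneyberg. The cut at the median leaves the limits of a pair unequal, so it cannot decide the direction.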

How the results depend on the processing

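With 1 pooled list for each group, no replicate could be left out. No paired analysis was possible because each group is 1 list in which the numbered replicates are combined. Over 314 recomputed values, 203 stayed within 1.5 times a count, the Wilson interval of a share or 10% of another value, 103 moved further and 8 changed sign. Jaccard indices and listed shares are measured in bases, but their Wilson interval took the number of member regions as its count. It measures no spread of such values and served only as a fixed width. A reciprocal overlap of 50%, merging within 1 kb and the rule of membership at the boundary moved no gained or lost count and no balance of them beyond these limits, and leaving out any 1 chromosome moved no Jaccard index beyond them. The cuts by score did, and treatments are given in the order Moneyberg BABA TW2, Ina TW2, BABA TW3, MeJA TW3, Bolstar BABA TW2, Ina TW2. With both lists cut at 85, gained minus lost was 30, 22, 10, 46, -27 and -40, in place of -105, -92, -96, -144, -136 and 150, so the sign turned in all but Bolstar BABA TW2. Lost members then numbered 40, 42, 46, 37 and 107 in the first 5 comparisons, and gained members 44 in Bolstar Ina TW2. With only the counted members cut at 85, the balance was 8, -1, 0, 5, -35 and -16. Gained members were then 26, 17, 18 and 23 in Moneyberg and 34 in Bolstar Ina TW2, and lost members 18 in each Moneyberg comparison and 107 in Bolstar BABA TW2. With both lists cut at the higher lowest score of the pair, the balance was -34, -55, -25, -1, -27 and 22. Lost members were then 113 for Moneyberg BABA TW2, 96 for BABA TW3, 78 for MeJA TW3 and 107 for Bolstar BABA TW2, and gained members 98 for Bolstar Ina TW2. With both cut at their own median score, gained were 17, 17, 13, 15, 8 and 58, lost 30, 32, 36, 39, 36 and 18, and the balance -13, -15, -23, -24, -28 and 40. Under a cut of both lists, a lost region may overlap a low-scoring region that the cut removed. The cause of the turns beyond the score cut itself was not tested.

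Jaccard indices with both lists cut at 85 were 0.8921 for Moneyberg BABA TW2, 0.8941 for BABA TW3, 0.8804 for MeJA TW3, 0.8306 for Bolstar BABA TW2 and 0.8737 for Bolstar Ina TW2. The listed share of the starts was 16.5% in Bolstar Control and 18.0% in Moneyberg Control for a window of 3 Mb, 6.71% and 7.71% for regions at or above their list's median score, and 16.4% in Moneyberg Control at the minimum of 85. The ratio of the last to the first bin was 1.65 in Bolstar Control and 1.61 in Moneyberg Control. It was 1.89 in both with bins of 0.5 Mb and 1.88 in Moneyberg Control at the minimum of 85. The median over members of score per kb was 16.9 in Bolstar Control and 16.7 in Moneyberg Control, below the summed ratio, and the median length at the minimum of 85 was 7.40 kb in Moneyberg Control. Unknown read depth, score definition and methylation direction limit every comparison of lists, and the spread between plants cannot be seen in them.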
